A study of Mus musculus with 16 samples.

Results

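Mast cell genes are genes whose products mast cells store, secrete or carry on their surface. The 9 followed here are Cma1, Mcpt4, Tpsb2 and Cpa3 for granule proteases, Fcer1a and Ms4a2 for chains of the high-affinity IgE receptor, Kit for the stem cell factor receptor, Mrgprb2 for a receptor of basic secretagogues, and Hdc for histidine decarboxylase. They were chosen by symbol, as 9 of the 23238 gene symbols (23282 rows) in the count table of each library, and all 9 were among the 14854 rows that passed the filter on low counts. Total RNA from the dorsal skin of male C57BL/6N mice (genotype WT, 3 weeks old when bought and adapted for 1 week) was sequenced in 16 libraries, 4 mice in each of 4 groups. Cont mice ate normal chow. LowAhR mice ate a diet low in ligands of the aryl hydrocarbon receptor (AhR) for 12 weeks and lived on AhR ligand-free paper bedding, so that diet and bedding cannot be told apart. LowAhR+AD mice had the same diet and bedding and, from 2 weeks into the diet, 1% 2,4-dinitrochlorobenzene (DNCB) in acetone and olive oil on the dorsal skin, 2 times a week for 10 weeks, as a model of atopic dermatitis (AD). LowAhR+AD+BJ mice had all of this and Bojungikgi-tang (BJIKT), a water extract of a herbal formula, at 1 g/kg per day by oral gavage. No group with DNCB on normal chow was analysed here, and the sources used here do not say whether the other mice received vehicle or water.

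Mast cells are tissue-resident cells of the dermis that mature under stem cell factor, the ligand of KIT. When allergen links IgE on the receptor FcεRI, which is built of an alpha chain (Fcer1a), a beta chain (Ms4a2) and gamma chains (Fcer1g), they release granules with histamine, proteoglycan and proteases. Connective tissue mast cells of mouse skin carry chymases, tryptases and carboxypeptidase A3, and MRGPRB2 lets them degranulate without IgE.

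Levels are given as CPM, the read count scaled to a common library total with TMM factors. QuantSeq reads 1 stretch next to the poly(A) tail of a transcript, so CPM needed no scaling by gene length. Library totals were 7080508 to 13467477 counts, and every library of the DNCB groups was deeper than every library of the others. The 9 genes together took 0.0272% to 0.107% of a library. The limit that a count of 0 allows (3 counts) lay between 0.229 and 0.406 CPM, and covers counting error only. LowAhR+AD replicate 1 stood apart from the other libraries: of the genes expected at 20 to 40 counts from the rest of its group, 32.6% had no count in it, against 1.03% to 13.8% in every other library. Fold changes and adjusted p-values are from edgeR's quasi-likelihood test with all libraries in 1 model, adjusted over all 14854 rows, and a gene was called at an adjusted p under 0.05. The two-sided exact permutation test of log2 CPM given beside it cannot go below p = 0.0286 with 4 mice against 4.

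Coordinates are those of GRCm38, the assembly that the mm10 build of the processing notes stands for. Cma1 (chr14:55941451-55944675, minus strand) and Mcpt4 (chr14:56059629-56062313, minus strand) lie in the mast cell protease cluster of chromosome 14. Tpsb2 lies at chr17:25366305-25369098 (plus strand), Cpa3 at chr3:20215620-20242181 (minus strand), Kit at chr5:75574916-75656722 (plus strand) and Ms4a2 at chr19:11615523-11623719 (minus strand). Fcer1a lies at chr1:173221284-173227214, Mrgprb2 at chr7:48550965-48558086 and Hdc at chr2:126593667-126619299, each on the minus strand. All 9 are protein-coding, and no annotated gene overlapped the last 500 bases of their transcripts. Of the 75-base stretches in those ends, 3.97% of Cma1 recurred in Gm48934 and 6.10% of Mcpt4 in Cma2, whereas the other 7 genes shared none.

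The promoters of the pairs that varied together most between mice, Cma1 with Cpa3 and Mcpt4 with Hdc by the correlations given further on, are shown as the 250 bases before the RefSeq start site on GRCm38.p6. Capitals mark GATAA or its reverse complement TTATC, the letters that GATA factors such as GATA2, a regulator of mast cell development, read in DNA. The windows are chr14:55944676-55944925 for Cma1, chr3:20242182-20242431 for Cpa3, chr14:56062311-56062560 for Mcpt4 and chr2:126618679-126618928 for Hdc, each written 5′ to 3′ on the minus strand.
Cma1: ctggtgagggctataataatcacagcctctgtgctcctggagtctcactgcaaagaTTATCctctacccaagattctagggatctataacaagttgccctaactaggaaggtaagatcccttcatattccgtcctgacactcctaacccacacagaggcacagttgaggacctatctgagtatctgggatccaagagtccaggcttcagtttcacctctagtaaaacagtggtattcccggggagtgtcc
Cpa3: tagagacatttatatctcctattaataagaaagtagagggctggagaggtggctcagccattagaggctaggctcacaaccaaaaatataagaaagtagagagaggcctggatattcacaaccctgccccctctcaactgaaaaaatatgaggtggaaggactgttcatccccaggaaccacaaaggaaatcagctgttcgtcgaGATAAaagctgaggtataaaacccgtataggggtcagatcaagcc
Mcpt4: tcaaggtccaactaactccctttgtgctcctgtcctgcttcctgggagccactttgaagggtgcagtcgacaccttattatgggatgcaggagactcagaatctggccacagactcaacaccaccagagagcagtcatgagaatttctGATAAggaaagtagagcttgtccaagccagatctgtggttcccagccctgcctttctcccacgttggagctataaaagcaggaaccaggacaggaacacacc
Hdc: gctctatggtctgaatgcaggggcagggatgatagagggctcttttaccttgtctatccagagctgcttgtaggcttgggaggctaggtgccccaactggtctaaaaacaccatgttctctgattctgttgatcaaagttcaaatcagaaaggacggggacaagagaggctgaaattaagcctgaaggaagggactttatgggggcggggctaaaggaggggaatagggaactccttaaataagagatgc
Cma1, Cpa3 and Mcpt4 held 1 GATAA each, with its first base 194, 45 and 102 bases before the start site, and Hdc held none. Of the 8 members matched to a promoter, 6 held GATAA on either strand (Cma1, Mcpt4, Cpa3, Ms4a2, Fcer1a and Mrgprb2, with 3 matches in Ms4a2), against 22.6% of all 32851 promoters. CACGTG, a sequence bound by MITF, was found in none of the 8 (6.02% of all promoters), CATGTG in Fcer1a alone (12.25%), and GGAAGT, the core read by PU.1, in none (19.7%). Matches of different motifs did not overlap. A match is a string of letters and no evidence of binding.

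The granule protease genes were the most abundant of the 9 and included each member called for LowAhR+AD against Cont. Tpsb2, which encodes the tryptase MCPT6, had 66.2, 74.0, 108 and 87.8 CPM in Cont replicates 1 to 4, and 113, 113, 196 and 90.8 CPM in LowAhR. It had 435, 148, 244 and 360 CPM in LowAhR+AD, and 192, 169, 93.8 and 181 CPM in LowAhR+AD+BJ. All LowAhR+AD mice lay above all Cont mice, and 3 of the 4 lay above all LowAhR mice. Tpsb2 rose by a log2 fold change of 1.82 against Cont (standard error (SE) 0.33, adjusted p = 0.00106 from edgeR; 3.53-fold; exact permutation p = 0.0286). Against LowAhR it rose by 1.21 (SE 0.32, adjusted p = 0.0209 from edgeR; 2.31-fold; exact permutation p = 0.0571). In LowAhR+AD+BJ the level was lower than in LowAhR+AD by a fitted log2 change of -0.90 (95% interval -1.58 to -0.23), which did not pass the adjustment (unadjusted p = 0.0118, adjusted p = 0.498, edgeR). The groups overlapped in this comparison (exact permutation p = 0.114). Ordered by mean, Tpsb2 ran from Cont (84.0 ± 18.2 CPM, SD, n = 4) over LowAhR (128 ± 46.5) and LowAhR+AD+BJ (159 ± 44.4) to LowAhR+AD (297 ± 126), and no neighbours in that order passed the threshold. Of the calls for Tpsb2, that against Cont held in each alternative and each fit without 1 library. That against LowAhR was lost in fits without LowAhR replicate 1 (adjusted p = 0.0627 from edgeR), LowAhR replicate 2 (0.0611), LowAhR+AD replicate 1 (0.0567) or LowAhR+AD replicate 4 (0.0524), and with only the 8 libraries compared (0.0804).

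Cpa3, the gene of carboxypeptidase A3, had 50.7, 62.9, 78.4 and 78.8 CPM in Cont and 93.6, 139, 149 and 93.6 CPM in LowAhR. It had 108, 128, 273 and 201 CPM in LowAhR+AD, and 275, 263, 96.2 and 137 CPM in LowAhR+AD+BJ. The Cont mice lay below all mice of every other group. Cpa3 rose in LowAhR+AD against Cont by 1.39 on the log2 scale (SE 0.34, adjusted p = 0.00771 from edgeR; exact permutation p = 0.0286) and in LowAhR+AD+BJ against Cont by 1.51 (SE 0.34, adjusted p = 0.00497 from edgeR; exact permutation p = 0.0286). LowAhR lay above Cont without overlap too, by 0.81 (SE 0.34, 95% interval 0.10 to 1.52; exact permutation p = 0.0286), but did not pass the adjustment (unadjusted p = 0.0271, adjusted p = 0.279, edgeR). The group means were 67.7 ± 13.5 CPM in Cont, 119 ± 29.6 in LowAhR, 177 ± 75.1 in LowAhR+AD and 193 ± 89.7 in LowAhR+AD+BJ (SD, n = 4), and among the 3 groups on the diet no pair was called. Both calls against Cont held in each alternative and each fit without 1 library.

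Cma1 encodes a mouse chymase, MCPT5, that marks connective tissue mast cells. It had 35.8, 33.3, 50.0 and 64.9 CPM in Cont, 66.1, 71.0, 80.0 and 44.4 CPM in LowAhR, 50.3, 69.3, 121 and 131 CPM in LowAhR+AD, and 179, 138, 54.8 and 159 CPM in LowAhR+AD+BJ. The means followed the order of the groups, from 46.0 ± 14.6 CPM over 65.4 ± 15.1 and 92.9 ± 39.3 to 133 ± 54.6 CPM (SD, n = 4), and no neighbours passed the threshold. Against Cont, Cma1 rose in LowAhR+AD by 1.01 (SE 0.36, adjusted p = 0.0494 from edgeR; exact permutation p = 0.0571) and in LowAhR+AD+BJ by 1.53 (SE 0.36, adjusted p = 0.00623 from edgeR; exact permutation p = 0.0571), with 3 of 4 mice above all Cont mice each time. The call for LowAhR+AD was lost in fits without Cont replicate 1 (adjusted p = 0.122 from edgeR), Cont replicate 2 (0.135), Cont replicate 3 (0.0800), LowAhR+AD replicate 3 (0.119) or LowAhR+AD replicate 4 (0.153). It was also lost in 5 of 10 alternatives, with RLE or upper-quartile factors, limma voom, only the 8 libraries compared or the replicate block (adjusted p from 0.0543 to 0.0968 with edgeR and limma). LowAhR+AD+BJ against LowAhR gave 1.02 (adjusted p = 0.0922 from edgeR) and, without LowAhR+AD+BJ replicate 3, 1.28 (adjusted p = 0.0174 from edgeR).

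Mcpt4, the other chymase gene, was called in no comparison. Its levels were 192, 124, 147 and 138 CPM in Cont, 166, 210, 111 and 41.1 CPM in LowAhR, 258, 118, 131 and 251 CPM in LowAhR+AD, and 243, 334, 75.4 and 236 CPM in LowAhR+AD+BJ. The groups overlapped in every comparison. Its log2 change was 0.52 in LowAhR+AD against LowAhR (95% interval -0.40 to 1.44, adjusted p = 0.471 from edgeR) and 0.34 against Cont (adjusted p = 0.638 from edgeR).

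**Figure D1:**
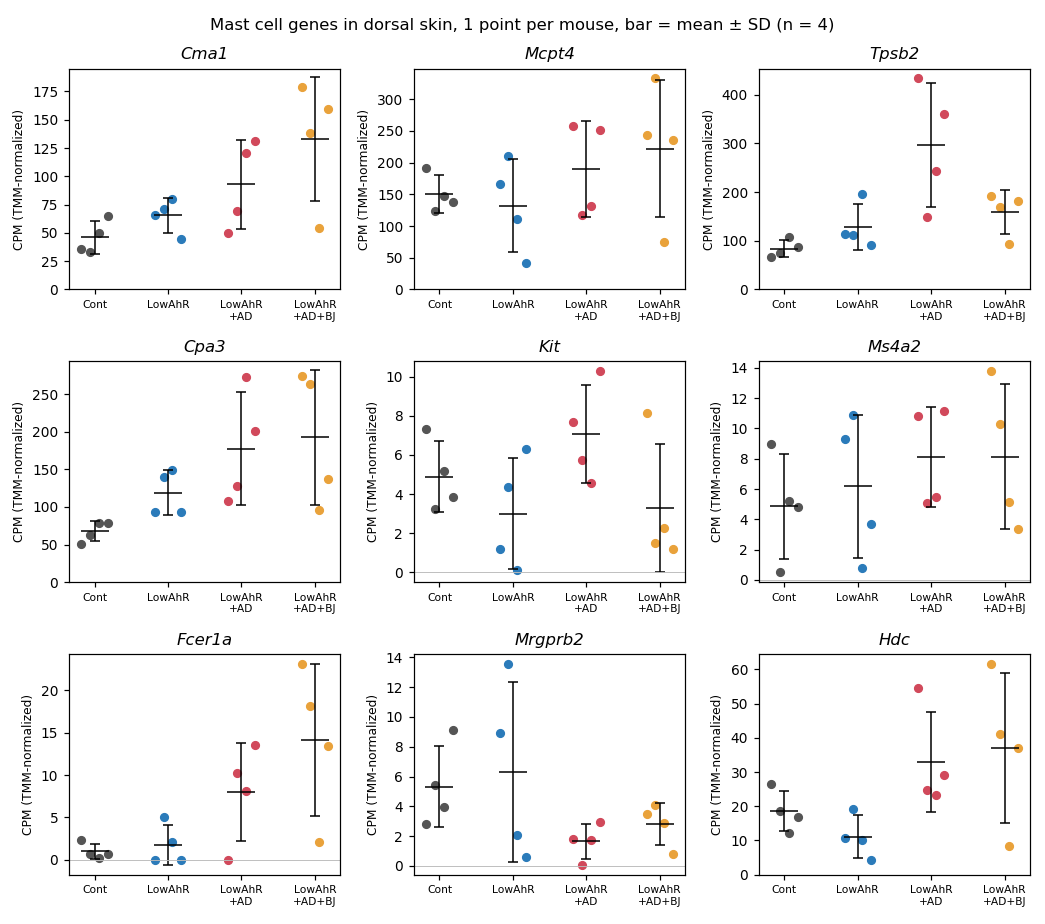
Level of each of the 9 genes in CPM (linear axis from 0 or just below) in single mice of the 4 groups, with points for mice and bars for the mean ± SD (n = 4). Tpsb2 peaks in LowAhR+AD with 148 to 435 CPM, Cpa3 and Cma1 are higher in both DNCB groups than in Cont, and LowAhR+AD+BJ replicate 3 is the lowest of its group in 6 genes.

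Hdc makes histamine from histidine, and in mice it is also active in basophils and neutrophils. It had 26.4, 18.7, 12.2 and 17.0 CPM in Cont, 10.7, 19.3, 10.1 and 4.30 CPM in LowAhR, 54.6, 24.8, 23.2 and 29.2 CPM in LowAhR+AD, and 61.7, 41.2, 8.25 and 36.9 CPM in LowAhR+AD+BJ. All LowAhR+AD mice lay above all LowAhR mice, and 3 of 4 LowAhR+AD+BJ mice did. Hdc rose by 1.57 in LowAhR+AD against LowAhR (SE 0.51, adjusted p = 0.0491 from edgeR; 2.96-fold; exact permutation p = 0.0286). In LowAhR+AD+BJ against LowAhR it rose by 1.74 (SE 0.51, adjusted p = 0.0465 from edgeR; exact permutation p = 0.114). Against Cont the log2 change in LowAhR+AD was 0.82 (adjusted p = 0.257 from edgeR), and LowAhR against Cont gave -0.74 (95% interval -1.79 to 0.31, adjusted p = 0.561 from edgeR), with 3 of 4 LowAhR mice below all Cont mice. Ordered by mean, LowAhR (11.1 ± 6.19 CPM) came before Cont (18.6 ± 5.91), LowAhR+AD (32.9 ± 14.6) and LowAhR+AD+BJ (37.0 ± 22.0; SD, n = 4), and no neighbours passed the threshold.

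Both calls for Hdc depended on single libraries and on the processing, and both were lost with RLE or upper-quartile factors, limma voom or only the 8 libraries compared. The call for LowAhR+AD against LowAhR was lost without LowAhR replicate 1 (adjusted p = 0.108 from edgeR), 3 (0.107) or 4 (0.106), or without LowAhR+AD replicate 1 (0.138), 2 (0.0593) or 4 (0.0694). The call for Hdc in LowAhR+AD+BJ against LowAhR was lost without LowAhR replicate 1 (adjusted p = 0.106 from edgeR), 3 (0.117) or 4 (0.0960), or without LowAhR+AD+BJ replicate 1 (0.155), 2 (0.121) or 4 (0.0981). The summed level of 4 neutrophil genes (Cxcr2, Csf3r, Mmp8 and Mmp9) was 8.47 to 13.1 CPM in Cont (mean 11.47), 5.41 to 21.1 in LowAhR (12.9), 13.4 to 109 in LowAhR+AD (47.8) and 20.1 to 64.3 in LowAhR+AD+BJ (40.2). Like Hdc, it had higher means in both DNCB groups than in the groups without DNCB. Between Cont and LowAhR and between the DNCB groups its mean CPM and that of Hdc went opposite ways, within overlapping ranges. For Hdc the direction between the DNCB groups depended on the scale (fitted log2 change 0.17, difference in mean log2 CPM -0.06). The part of these cells in the change of Hdc was not tested. The basophil gene Mcpt8 was at 0 in all Cont and LowAhR mice and at no more than 0.883 CPM in any mouse. The summed level of the 4 listed basophil genes averaged 3.25 CPM in Cont, 3.09 in LowAhR, 5.28 in LowAhR+AD and 4.56 in LowAhR+AD+BJ, within overlapping ranges. The part of basophils in the change of Hdc was not tested either.

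Fcer1a, the chain that binds IgE, ranged from 0 to 23.1 CPM. Its levels were 2.31, 0.65, 0.25 and 0.72 CPM in Cont, 0, 4.99, 2.08 and 0 CPM in LowAhR, 0, 10.3, 8.16 and 13.6 CPM in LowAhR+AD, and 23.1, 18.1, 2.10 and 13.4 CPM in LowAhR+AD+BJ. In counts, the LowAhR+AD mice had 0, 125, 105 and 169 reads of Fcer1a, and the 0 came from LowAhR+AD replicate 1, the library with many genes at 0. The other 3 LowAhR+AD mice lay above every Cont and LowAhR mouse, as did 3 of the 4 LowAhR+AD+BJ mice. The log2 change of Fcer1a in LowAhR+AD against Cont was 3.02 (95% interval 0.26 to 5.77, adjusted p = 0.110 from edgeR), and without LowAhR+AD replicate 1 it was 3.42 (adjusted p = 0.0296 from edgeR). In LowAhR+AD+BJ against Cont it was 3.84 (95% interval 1.01 to 6.67, adjusted p = 0.0525 from edgeR), and without LowAhR+AD+BJ replicate 3 it was 4.21 (adjusted p = 0.0385 from edgeR). In each comparison that fit was the only 1 of the 8 without 1 library in which Fcer1a was called. Among the alternatives, Fcer1a was called in 0 of 9 for LowAhR+AD against Cont and in 3 of 9 for LowAhR+AD+BJ against Cont. In the latter the adjusted p ran from 0.00443 to 0.232 with edgeR, DESeq2 and limma voom. The highest adjusted p among the 8 fits without 1 library was 0.215 for LowAhR+AD and 0.124 for LowAhR+AD+BJ (edgeR). LowAhR+AD against LowAhR gave 2.17 (95% interval -0.46 to 4.80, adjusted p = 0.271 from edgeR).

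Ms4a2, the beta chain that amplifies receptor signalling, had 8.99, 0.52, 5.18 and 4.79 CPM in Cont, 9.33, 10.9, 0.78 and 3.70 CPM in LowAhR, 10.8, 5.09, 5.44 and 11.2 CPM in LowAhR+AD, and 13.8, 10.3, 5.13 and 3.33 CPM in LowAhR+AD+BJ. All 4 groups overlapped. Means of LowAhR+AD and LowAhR+AD+BJ were both 8.13 CPM (SD 3.32 and 4.78, n = 4), with a 95% interval of -1.55 to 1.55 for the log2 change between them. Fcer1g, whose gamma chain serves other Fc receptors of myeloid cells as well, had 76.0 ± 19 CPM in Cont, 143 ± 30 in LowAhR, 147 ± 98 in LowAhR+AD and 235 ± 130 in LowAhR+AD+BJ (SD, n = 4). It rose in LowAhR+AD+BJ against Cont (1.63, SE 0.51, adjusted p = 0.0308 from edgeR) without overlap of the groups. LowAhR mice (114 to 180 CPM) also lay above all Cont mice (53.7 to 97.9 CPM), without a call. Over all tested genes, 15.3% lay higher without overlap in LowAhR+AD+BJ against Cont and 5.68% in LowAhR against Cont.

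Kit, which melanocytes and some other skin cells also express, was low in every group. It had 7.32, 3.23, 5.18 and 3.83 CPM in Cont, 1.22, 4.35, 0.13 and 6.32 CPM in LowAhR, 7.71, 5.74, 4.59 and 10.3 CPM in LowAhR+AD, and 8.12, 1.53, 2.26 and 1.21 CPM in LowAhR+AD+BJ. In LowAhR+AD+BJ, 3 of 4 mice lay below all LowAhR+AD mice, and replicate 1 was the exception. The log2 change between these groups was -1.11 (95% interval -2.81 to 0.60, adjusted p = 0.680 from edgeR; exact permutation p = 0.114), and that of LowAhR+AD against LowAhR was 1.23 (95% interval -0.49 to 2.95, adjusted p = 0.348 from edgeR).

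Markers of melanocytes are given beside Kit for this reason. The summed level of the 8 listed melanocyte genes was 224 to 278 CPM in Cont, 201 to 270 in LowAhR, 433 to 509 in LowAhR+AD and 269 to 524 in LowAhR+AD+BJ. Dct, a pigment enzyme, rose in LowAhR+AD against LowAhR by 1.78 (SE 0.49, adjusted p = 0.0239 from edgeR), and Ednrb also rose, as 2 of 7 tested melanocyte genes. Against Cont, 4 of the 7 rose (Dct, Tyrp1, Slc45a2 and Ednrb). Among all tested genes, 6.42% were called higher in LowAhR+AD against LowAhR and 12.3% against Cont. The part of melanocytes in the level of Kit was not tested.

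Mrgprb2 was the member with a negative fitted change in LowAhR+AD against both other groups. Its levels were 2.82, 5.43, 3.95 and 9.10 CPM in Cont, 8.93, 13.6, 2.08 and 0.60 CPM in LowAhR, 1.83, 0.08, 1.71 and 2.97 CPM in LowAhR+AD, and 3.47, 4.07, 2.88 and 0.81 CPM in LowAhR+AD+BJ. Of the LowAhR+AD mice, 3 lay below all Cont mice and replicate 4 lay within their range. The log2 change was -1.92 against LowAhR (95% interval -3.88 to 0.03, adjusted p = 0.185 from edgeR) and -1.68 against Cont (95% interval -3.63 to 0.26, adjusted p = 0.213 from edgeR; exact permutation p = 0.0571). Neither passed the threshold. Its neighbour in family, Mrgprb1, had 4.51 CPM in Cont, 5.41 in LowAhR, 8.01 in LowAhR+AD and 5.58 in LowAhR+AD+BJ on average, and was called in no comparison.

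**Figure D2:**
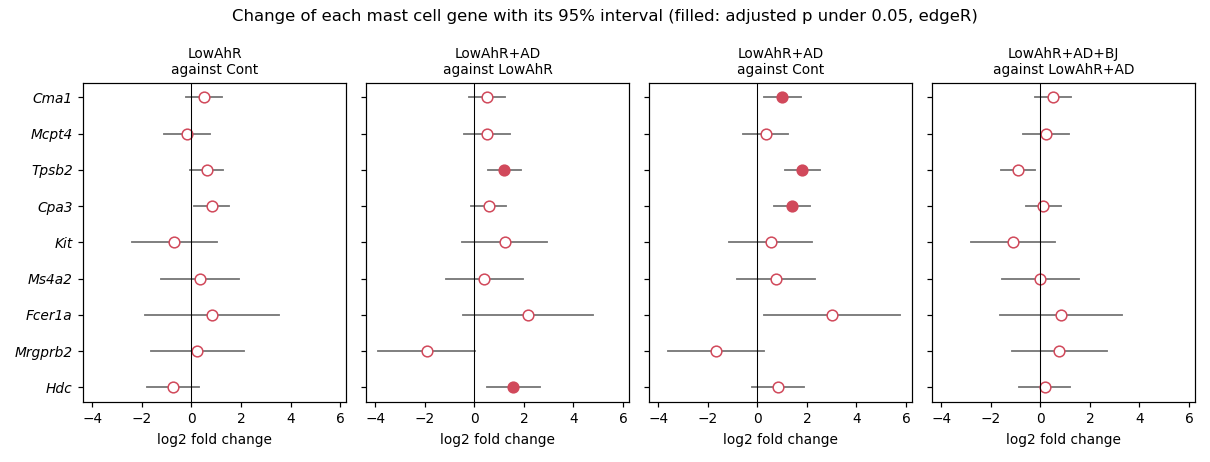
Fitted log2 fold change (horizontal axis) of each gene with its 95% interval from edgeR, for diet and bedding (LowAhR less Cont), DNCB on the diet (LowAhR+AD less LowAhR), both (LowAhR+AD less Cont) and BJIKT (LowAhR+AD+BJ less LowAhR+AD), with filled points at an adjusted p under 0.05. Filled points are Tpsb2 and Hdc against LowAhR, and Tpsb2, Cpa3 and Cma1 against Cont, and the intervals of Fcer1a, Mrgprb2, Kit and Ms4a2 are wider than those of the proteases.

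Counted over the 9 genes, LowAhR+AD against LowAhR, which asks what DNCB changes on the diet, called 2 higher (Tpsb2 and Hdc) and none lower, where 6.42% of all tested genes were called higher and 6.21% lower. Of the 9 fitted changes, 8 were positive, with a median of 0.58 against 0.04 over all tested genes. The groups did not overlap in 1 member (Hdc), against 8.92% of all genes that lay higher and 9.85% that lay lower without overlap. LowAhR+AD against Cont called 3 higher and none lower, with a background of 12.3% higher and 9.47% lower, and 2 members (Tpsb2 and Cpa3) lay higher without overlap, with a background of 12.9% higher and 11.8% lower. The median change there was 0.82, against 0.05 over all genes. In bulk RNA, more mast cells and more of these transcripts per cell cannot be told apart.

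LowAhR against Cont, the comparison of diet and bedding without dermatitis, called 0 of 9 members with edgeR, DESeq2 and limma voom, and 1 member (Cpa3) had an unadjusted edgeR p under 0.05. Of all tested genes 0% were called with edgeR and limma voom and 491 of 14854 with DESeq2, and 13.7% passed without adjustment in edgeR. The same 1 member lay higher without overlap, against 5.68% of all genes higher and 5.63% lower. Median change of the members was 0.34, with 6 positive and 3 negative values, and 0.03 over all genes. For 2 of the 6 the sign depended on the scale. Fcer1a had a fitted log2 change of 0.85 and a difference in mean log2 CPM of -0.21, and Mrgprb2 had 0.24 and -0.38.

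LowAhR+AD+BJ against LowAhR+AD, which asks what BJIKT changes in dermatitis, also called 0 of 9 members with edgeR, DESeq2 and limma voom. Of all genes 0% were called with edgeR and limma voom and 17 of 14854 with DESeq2. An unadjusted edgeR p under 0.05 was found for 1 member (Tpsb2), against 9.46% of all genes. No member was without overlap (2.42% of all genes lay higher and 2.65% lower). The median change was 0.17, with 6 positive and 3 negative values, and Hdc, fitted at 0.17, had a difference in mean log2 CPM of -0.06. The 95% interval reached from -0.22 to 1.25 for Cma1, from -0.58 to 0.82 for Cpa3 and from -0.86 to 1.19 for Hdc, and changes anywhere within these intervals were not distinguishable at this spread. Set against groups without DNCB, LowAhR+AD+BJ called Hdc higher against LowAhR (background 3.64% higher and 3.12% lower) and Cma1 and Cpa3 higher against Cont (background 11.2% higher and 8.62% lower). Without overlap lay no member against LowAhR (background 8.91% higher and 8.19% lower) and 1 against Cont, Cpa3 (background 15.3% higher and 12.4% lower). Tpsb2 against Cont had 0.92 there (adjusted p = 0.0524 from edgeR). It was called in 3 of 10 alternatives (adjusted p from 0.0167 to 0.0740 with edgeR, DESeq2 and limma voom) and in 1 of 8 fits without 1 library. LowAhR+AD and LowAhR+AD+BJ were compared with the same control mice, so their changes are not independent. A test of any difference among the 4 groups called Tpsb2 (adjusted p = 0.00309 from edgeR), Cpa3 (0.0136) and Cma1 (0.0190), and left Hdc (0.0517) and Fcer1a (0.0893) above the threshold, with 23% of all genes called. In the alternatives of this test Hdc was called in 4 of 8 (adjusted p from 0.0374 to 0.159 with edgeR and limma voom). Cma1 was called in 7 of 8 and Fcer1a in 0 of 7.

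The make-up of the mast cell transcripts also varied. The summed level of the 9 genes was 322 to 410 CPM in Cont (mean 383), 285 to 586 in LowAhR (473), 509 to 1010 in LowAhR+AD (814) and 341 to 999 in LowAhR+AD+BJ (772). Tpsb2 made up 16.9% to 26.3% of that sum in Cont, 19.2% to 35.5% in LowAhR, 29.1% to 47.0% in LowAhR+AD and 17.3% to 27.5% in LowAhR+AD+BJ. Its share in LowAhR+AD was thus above that of all Cont and all LowAhR+AD+BJ mice and overlapped that of LowAhR. Mcpt4 had a share of 34.1% to 48.9% in Cont, 14.4% to 35.9% in LowAhR, 16.2% to 27.8% in LowAhR+AD and 22.1% to 34.1% in LowAhR+AD+BJ. The share of Mrgprb2 was 0.719% to 2.25% in Cont, 0.210% to 2.31% in LowAhR, 0.016% to 0.294% in LowAhR+AD and 0.105% to 0.845% in LowAhR+AD+BJ. For both genes the share in LowAhR+AD lay below Cont without overlap and overlapped LowAhR and LowAhR+AD+BJ. A share also falls when another member rises. The mean level of Mcpt4 itself was 150 CPM in Cont and 190 CPM in LowAhR+AD, and was not called as different. These shares are given as a description, without a test.

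**Figure D3:**
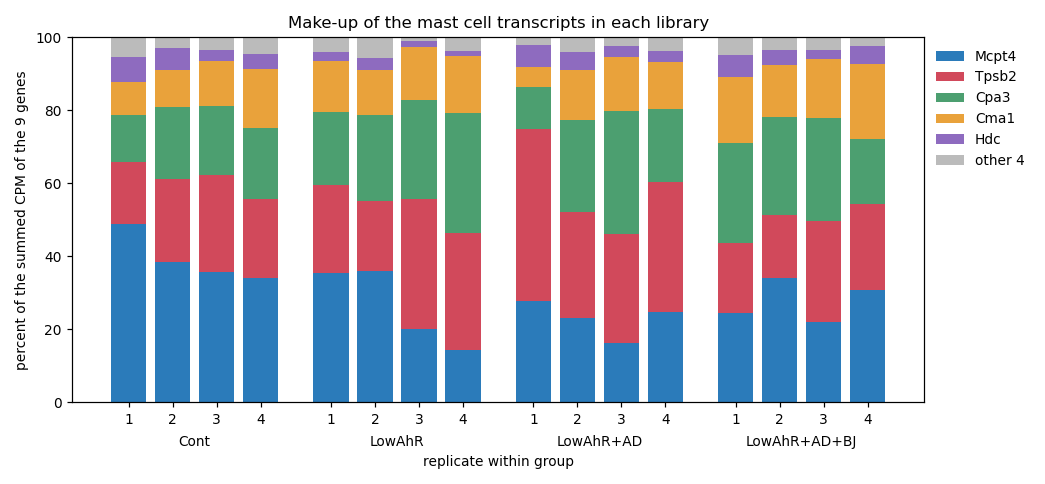
Percent of the summed CPM of the 9 genes taken by Mcpt4, Tpsb2, Cpa3, Cma1 and Hdc and by the other 4 genes together (stacked bars from 0 to 100, 1 bar per mouse, by group). Tpsb2 takes 29.1% to 47.0% in LowAhR+AD and 17.3% to 27.5% in LowAhR+AD+BJ, and the 4 lowest genes take the thin top band.

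Whether the members changed by unequal amounts was tested by subtracting the log2 CPM of Kit from that of each other member within a mouse. The 16 exact permutation tests (8 genes, once for DNCB on the diet and once for BJIKT in dermatitis) gave no adjusted p under the threshold. With 4 mice a group and this adjustment a single gene could not have passed, and Kit had 1 read in LowAhR replicate 3, so the tests do not show that the members changed equally. The lowest was 0.229, for Ms4a2 (a difference of 1.28 on the log2 scale) and Mrgprb2 (2.34) in LowAhR+AD+BJ against LowAhR+AD, each higher relative to Kit with BJIKT (exact permutation p = 0.0286 before adjustment, the smallest possible).

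Mice of 1 group differed in several members at once. LowAhR replicate 4 was the lowest of its group in 7 of the 9 genes, and LowAhR+AD+BJ replicate 3 in 6. The 7 include Fcer1a, where LowAhR replicate 1 was at 0 as well, and Cpa3, with 93.56 CPM against 93.61 in replicate 1. LowAhR+AD+BJ replicate 1 was the highest of its group in 7. These counts were made for the members only, so a trait of the whole library cannot be told from one of mast cell genes. LowAhR replicate 4 also had 8.48% of its counts in the gene Rn45s, against 0.783% to 4.73% in every other library. After the group means were removed, the members' log2 CPM correlated over the 16 libraries with a median Pearson r of 0.35 over the 36 pairs (-0.24 to 0.87), and 29 pairs were positive. The closest pairs were Mcpt4 with Hdc (r = 0.87) and Cma1 with Cpa3 (r = 0.82), the genes whose promoters are printed above. Kit went with Ms4a2 (r = 0.64) and with no protease gene (r from -0.24 to -0.05). The libraries share depth and composition among all their genes, so these correlations are given as a description.

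**Figure D4:**
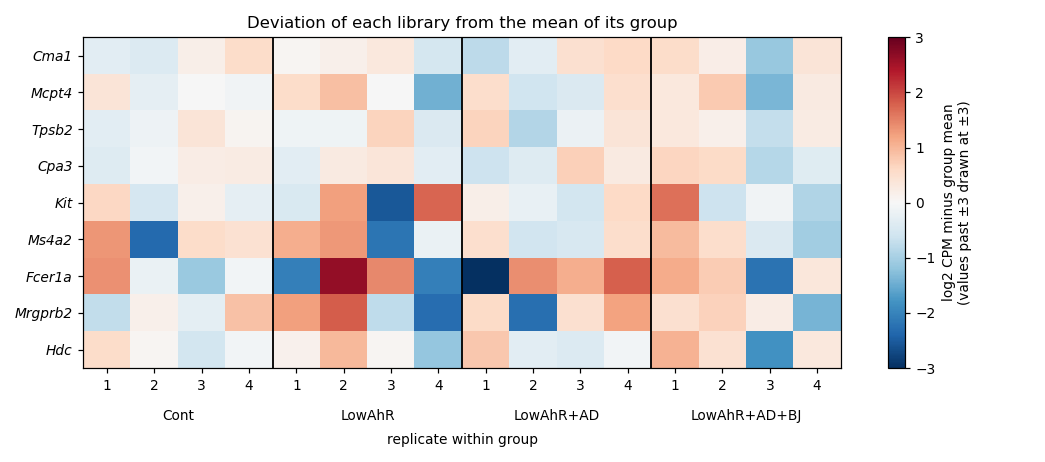
Log2 CPM of each gene (rows) minus the mean of its group in each of the 16 libraries (columns, replicates 1 to 4 within each group), from blue (below the group mean) to red (above). LowAhR replicate 4 and LowAhR+AD+BJ replicate 3 are blue in most genes, and LowAhR+AD replicate 1 is dark blue in Fcer1a, where it had 0 counts.

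The genes most like the members in this variation were on none of the lists of mast cell genes. Over 14822 other genes, the correlation with the members' mean deviation ranged from -0.94 to 0.88 (median -0.06, 95th percentile 0.47, 16 libraries). The 10 highest were 1810043H04Rik (r = 0.88), Rnf146, Cfl1, Gabarap, Echdc1, Tgoln2, Casp8, Pcp2, Tpgs1 and Syf2 (r = 0.82), among them Cfl1 for the actin-severing cofilin and Gabarap for an autophagy protein, both made in most cells. By the same measure against the other 8 members, Mcpt4 reached 0.76, Hdc 0.69, Cma1 0.65, Cpa3 0.60 and Mrgprb2 0.51. Tpsb2 (0.41), Ms4a2 (0.41), Fcer1a (0.36) and Kit (0.05) lay below that 95th percentile of 0.47.

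Of close relatives of the granule genes, Mcpt2 was at 0 in all 16 mice, and Mcpt1 and Mcpt9, markers of mucosal and uterine mast cells, stayed at or below 0.964 and 0.389 CPM in every mouse and were not tested. Tpsab1, another tryptase gene, was at 0 in all 4 LowAhR mice. It averaged 2.28 CPM in Cont, 1.71 in LowAhR+AD and 2.00 in LowAhR+AD+BJ, and was called in neither DNCB group against Cont. Against LowAhR it rose in LowAhR+AD (adjusted p = 0.0177 from edgeR) and in LowAhR+AD+BJ (adjusted p = 0.0237 from edgeR). Those group means were 4.21 and 4.93 times the highest limit of a 0 count in a single LowAhR library (0.406 CPM). This limit covers counting error of the zeros only, and the lowest mice of these groups had 1.14 and 0.778 CPM. Srgn, the proteoglycan core that holds proteases in granules of mast cells and of other leukocytes, rose against Cont in LowAhR+AD (1.52, adjusted p = 0.0189 from edgeR) and in LowAhR+AD+BJ (2.03, adjusted p = 0.00405 from edgeR). In this list of 9 granule genes 5 were tested, and for LowAhR+AD against LowAhR 1 rose and 0 fell. The background for that comparison was 6.42% of all tested genes called higher and 6.21% lower.

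In the lists of pathways around mast cells, the calls for LowAhR+AD against LowAhR were falls, to be read beside 6.42% of all tested genes called higher and 6.21% lower. Of 16 genes of IgE receptor signalling, 0 rose and 2 fell in LowAhR+AD against LowAhR, the adaptor Gab2 (-1.20, adjusted p = 0.0245 from edgeR) and the calcium sensor Stim1 (-1.98, adjusted p = 0.00932 from edgeR), and the median change was -0.04. Of 14 tested growth factors, cytokine receptors and transcription factors 0 were called in any comparison. Kitl, the ligand of KIT, had means of 18.4 to 20.7 CPM in the 4 groups. Il33, an alarmin for mast cells, had means of 19.5, 23.3, 42.1 and 74.6 CPM from Cont to LowAhR+AD+BJ, with 0 in 1 LowAhR+AD mouse. Its receptor gene Il1rl1 had 10.8 to 14.9 CPM on average, Mitf 66.7 to 88.2 CPM and Gata2 4.29 to 7.41 CPM.

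Among 13 tested genes of mediator synthesis and storage, 0 rose and 2 fell in LowAhR+AD against LowAhR. These were Ptgs1, cyclooxygenase 1, with -2.19 (adjusted p = 0.000168 from edgeR), and Hpgds, the hematopoietic prostaglandin D2 synthase, with -1.69 (adjusted p = 0.00805 from edgeR), and many other skin cells express Ptgs1. The histamine and amine transporter Slc18a2 had means of 1.93 to 4.22 CPM and was not called. Of 7 tested genes for receptors and breakdown of mediators 0 rose and 1 fell, Hnmt, which inactivates histamine (-2.08, adjusted p = 0.0424 from edgeR). Of 15 tested genes of a skin mast cell signature outside the members 0 rose and 2 fell, Smpx (-2.91, adjusted p = 0.00393 from edgeR), a gene of striated muscle as well, and Ptger3 (-2.64, adjusted p = 0.00547 from edgeR). With BJIKT in dermatitis no gene of these lists was called with edgeR, in a comparison where 0 of all 14854 tested genes were called.

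Against Cont, where 12.3% of all tested genes were called higher and 9.47% lower in LowAhR+AD, 3 of the 16 IgE receptor signalling genes fell in LowAhR+AD, the adaptor Grap2 (-2.26, adjusted p = 0.0238 from edgeR), Gab2 and Stim1, and Stim1 fell in LowAhR+AD+BJ too (-2.01, adjusted p = 0.00487 from edgeR). Stxbp2, which takes part in granule fusion, rose in LowAhR+AD (1.04, adjusted p = 0.00301 from edgeR) and in LowAhR+AD+BJ (0.99, adjusted p = 0.00455 from edgeR), whereas Ptgs1 fell in both (-2.80 and -2.46) and Hpgds in LowAhR+AD (-1.59, adjusted p = 0.00630 from edgeR). Areg, the growth factor amphiregulin, rose in LowAhR+AD+BJ against Cont (1.77, adjusted p = 0.0299 from edgeR) and LowAhR (1.99, adjusted p = 0.0379 from edgeR). Of the skin mast cell signature, the granule membrane gene Cd63, also made by many other cells, rose against Cont in LowAhR+AD (0.90, adjusted p = 0.0473 from edgeR) and LowAhR+AD+BJ (1.00, adjusted p = 0.0315 from edgeR), and Maob (-1.61) and Smpx (-2.38) fell in LowAhR+AD. In LowAhR+AD+BJ against LowAhR, Stim1, Ptgs1 and Ptger3 fell (-1.93, -1.85 and -2.05).

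Marker genes of other cell types in the skin sample were called with DNCB too. In LowAhR+AD against LowAhR the background was 6.42% of all tested genes called higher and 6.21% lower. In LowAhR+AD against LowAhR, the calls were 7 of 7 skeletal muscle genes lower, 4 of 5 adipocyte genes lower, 2 of 5 fibroblast genes lower (Col1a1 and Col1a2), 2 of 5 T cell genes lower (Cd3e and Cd3g), 1 of 5 pan-leukocyte genes lower (Ptprc), 2 of 4 keratinocyte genes higher (Krt5 and Krt14) and 2 of 3 neutrophil genes higher (Cxcr2 and Mmp8). None of 6 macrophage and dendritic cell genes, 4 endothelial, 8 hair follicle, 2 basophil and 2 eosinophil genes was called in that comparison. Against Cont, all 8 hair follicle genes and both eosinophil genes (Siglecf and Ccr3) were called higher in LowAhR+AD. The background there was 12.3% of all tested genes called higher and 9.47% lower. The summed eosinophil level averaged 0.542 CPM in Cont, 10.2 in LowAhR and 5.87 in LowAhR+AD, so it was higher without DNCB too. For the hair follicle genes these means were 334, 3119 and 13082 CPM. The summed level of the muscle genes was 7549 to 20356 CPM in LowAhR and 429 to 3506 in LowAhR+AD, and that of the keratinocyte genes 4371 to 5557 CPM and 5903 to 12315 CPM. The summed pan-leukocyte level was 333 to 432 CPM in LowAhR and 101 to 278 in LowAhR+AD, lower in the group where the mast cell genes summed to more. What these shifts in tissue make-up contribute to the share of mast cell transcripts was not tested.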

How the data were processed

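Total RNA of dorsal skin from 4 mice a group was made into QuantSeq 3′ libraries by the authors and read from a single end. The deposited tables hold raw read counts per gene symbol, 1 table per library, and 0 rows named no gene. Per the labels, the processing notes name Bowtie2, bedtools and mm10. Versions, annotation, strand setting and how multi-mapping reads were handled are not given in the sources used here. ExDEGA is named for differential expression and one-way ANOVA for group means.

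Groups and replicate numbers were taken from the labels. Rows were kept by filterByExpr (minimum count 10, minimum total 15), which left 14854 of 23282. TMM factors (0.892 to 1.16) and the quasi-likelihood test came from edgeR 4.0.16 in R 4.3.3, with all 16 libraries in 1 model, Benjamini-Hochberg adjustment over all rows and a threshold of 0.05. Log2 CPM used a prior count of 2. Replicates differed by a chi-square of 16.9 to 300 per degree of freedom, so each library counted once. The labels number the samples without naming animals, so p-values measure the spread between these samples. Same-numbered libraries did not deviate together (median r -0.007 over 24 pairs), so numbers were not used to pair samples.

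Results were recomputed with DESeq2 1.42.0, limma 3.58.1 voom, upper-quartile and RLE factors, no filter, 10 counts in every library, only the 8 libraries compared, a replicate block, library sizes without tissue genes and Rn45s, counts thinned to the smallest total, a prior count of 0.5, and each library left out in turn. The edgeR fit and the correlation with the members' mean were tested on simulated data. The members and lists were chosen with earlier results of these data known. The rule named all 9 members, fixed relatives and regulators, up to 3 called genes per list, direction and comparison with the largest change, and the 10 genes most like the members. Cma2 and Gm48934 were named for shared sequence. Of the marker lists of other cell types, not every gene that the rule allows was named, and they are given mainly as counts for LowAhR+AD against LowAhR. Gene positions and shared 75-base stretches were read from the GRCm38 reference (GENCODE), and promoters from RefSeq GRCm38.p6, which matched 8 of the 9 symbols. Tpsb2 was not matched.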

Additional observations from a re-analysis of the deposited data

Results flagged for a closer look

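Fcer1a in LowAhR+AD replicate 1 had a level of 0.0 CPM, while the other 3 mice of the group had 8.16 to 13.6 CPM. On the log2 CPM scale its gap to the nearest mouse was 0.88 of the range of the group, above Dixon's critical value for 4 samples. It was 1 of 36 sets of 4 mice checked (9 genes in 4 groups), and chance flags about 1 in 20. In the same library 32.6% of the genes predicted at 20 to 40 counts by its replicates had no count, and Fcer1a had 105 to 169 counts in the other 3. The part of that loss in the level of Fcer1a was not tested.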

How the results depend on the processing

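For diet and bedding (LowAhR less Cont) and for BJIKT in dermatitis, 0 members were called in every alternative and in every fit without 1 library. For LowAhR+AD against LowAhR the 2 calls became 1 with RLE factors, 1 with upper-quartile factors, 1 with limma voom and 0 with only the 8 libraries compared. Fits without 1 library gave 0 to 2. For LowAhR+AD against Cont the 3 calls became 2 in some alternatives, and fits without 1 library gave 2 to 4. For LowAhR+AD+BJ against LowAhR the 1 call became 0 with RLE, upper-quartile factors, limma voom and only the 8 libraries, and fits without 1 library gave 0 to 2. For LowAhR+AD+BJ against Cont the 2 calls became 4 with DESeq2 and 4 with only the 8 libraries, and fits without 1 library gave 2 to 5, with 5 without LowAhR+AD+BJ replicate 3. The test of any difference among the groups gave 2 to 5 in place of 3, with 5 without LowAhR replicate 2, and 4 with the replicate block. The cause was not tested, apart from the smaller number of samples where libraries were left out.

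Over all genes, LowAhR against Cont called 0 with edgeR and limma voom, 491 with DESeq2, 45 with at least 10 counts in every library and 250 with only the 8 libraries, and 2031 had an unadjusted p under 0.05. LowAhR+AD against LowAhR called 1876, and 765 with only the 8 libraries. LowAhR+AD+BJ against LowAhR called 1005, and 1676 with DESeq2. LowAhR+AD+BJ against LowAhR+AD called 0, and 17 with DESeq2. Leaving the tissue genes and Rn45s out of the library sizes moved the 1876 calls to 1877, so this alternative hardly altered the scaling and is no check on tissue make-up.

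The call for Tpsb2 against LowAhR had an adjusted p of 0.0804 with only the 8 libraries (edgeR). That for Hdc against LowAhR had 0.0557 with RLE, 0.0610 with upper-quartile factors, 0.107 with limma voom and 0.0726 with 8 libraries. For Cma1 in LowAhR+AD against Cont the values were 0.0543, 0.0658, 0.0968 and 0.0678 with edgeR and limma voom, and for Hdc in LowAhR+AD+BJ against LowAhR 0.0522, 0.0525, 0.185 and 0.0776. With the replicate block (the numbers share nothing but a label, and 7 of 16 libraries correlated best with their own number), members called were 2, 2, 1 and 2 for LowAhR+AD against LowAhR and Cont and LowAhR+AD+BJ against LowAhR and Cont, and Cma1 in LowAhR+AD against Cont was lost (adjusted p = 0.0708 from edgeR). The block changed no other call between 2 groups.

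Small changes turned sign. In LowAhR against Cont, limma voom gave -0.81 for Fcer1a and -0.50 for Mrgprb2, and fits without 1 library ranged from -0.50 to 0.12 for Mcpt4, -0.080 to 0.82 for Ms4a2, -0.49 to 1.70 for Fcer1a and -0.46 to 0.63 for Mrgprb2. In LowAhR+AD+BJ against LowAhR+AD, Ms4a2 had 0.00067 with RLE, 0.027 with upper-quartile factors, 0.00081 with DESeq2 and 0.073 with thinned counts, and Hdc had -0.12 with limma voom. Fits without 1 library there ranged from -0.039 to 0.51 for Mcpt4, -0.10 to 0.40 for Cpa3, -0.38 to 0.26 for Ms4a2 and -0.20 to 0.52 for Hdc, and from -0.85 to 0.78 for Kit in LowAhR+AD+BJ against LowAhR. Relative to Kit within a mouse, the differences between LowAhR+AD and LowAhR ranged in fits without 1 library from -1.42 to 0.38 for Tpsb2, -0.87 to 1.88 for Fcer1a and -1.17 to 0.66 for Hdc. In LowAhR+AD against LowAhR over all genes, 953 calls were higher and 923 lower, but 914 and 1178 with limma voom and 321 and 444 with only the 8 libraries, and against Cont 1827 and 1406, but 1513 and 1693 with limma voom.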
